A study of Mus musculus with 24 samples.

Results

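BV2 cells, an immortalised mouse microglial line, were compared after 72 h with lipopolysaccharide (LPS, 100 ng/mL) and after 72 h with 50 ng/mL of transforming growth factor beta (TGF-β). Small RNA of these cells gave 3 libraries per treatment, and these 6 libraries of the 24 in the series were chosen by their treatment columns and not by any measured value. The other cell groups were untreated controls and cells given interleukin-10 (IL-10, 50 ng/mL, 72 h), with 3 libraries each, and the same 4 groups were sequenced as released extracellular vesicles (EVs). Every group came from this 1 line, with no deletion or transgene named in the labels. Whether the 3 libraries of a group are separate cultures is not stated, so the p-values rest on a spread that may be technical. Libraries are numbered as in the deposited column names.

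MicroRNAs are cut from hairpin precursors, loaded into Argonaute proteins and guided to messenger RNAs mainly by the seed, bases 2 to 8 of the mature strand. LPS binds Toll-like receptor 4 and activates NF-kB, which drives transcription of mir-146a and mir-155, the first a brake on the pathway and the second an amplifier of inflammation. TGF-β acts through SMAD proteins, which change transcription and the processing of some hairpins, and in the brain it maintains the resting state of microglia.

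The mature strands below stand for the main families among the called precursors, printed 5′ to 3′ from RefSeq (GRCm38.p6) with the seed in capitals. The first 8 come from precursors that were higher after LPS and the last 6 from precursors that were higher after TGF-β. The deposited tables count whole precursors, so no printed strand was measured on its own.
miR-146a-5p: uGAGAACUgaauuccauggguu
miR-146b-5p: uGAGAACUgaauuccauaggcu
miR-155-5p: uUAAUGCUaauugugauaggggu
miR-21a-5p: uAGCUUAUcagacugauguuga
miR-222-3p: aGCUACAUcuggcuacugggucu
miR-221-3p: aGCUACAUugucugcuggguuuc
miR-7a-5p: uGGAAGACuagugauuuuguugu
miR-29b-3p: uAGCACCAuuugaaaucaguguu
miR-700-3p: cACGCGGGaaccgaguccacc
miR-744-5p: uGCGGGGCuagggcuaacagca
miR-504-5p: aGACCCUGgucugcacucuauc
miR-181a-5p: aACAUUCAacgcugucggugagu
miR-24-3p: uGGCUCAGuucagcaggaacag
miR-23a-3p: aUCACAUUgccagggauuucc
The strands of miR-146a-5p and miR-146b-5p differed at 2 of 22 positions and shared the seed GAGAACU. Those of miR-222-3p and miR-221-3p shared the seed GCUACAU and differed at 12 of 23 positions. RefSeq held a mature strand for 184 of the 259 tested precursors and for 63 of the 83 that differed between the treatments.

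LPS libraries held 185400 to 233757 counts and TGF-β libraries 283222 to 323300, with 402 to 410 precursors detected in each. Of 1187 precursors in the tables, 590 were at 0 in all 6 libraries. The limit that a count of 0 allows was a share of 0.00162% in the shallowest LPS library and 0.00106% in the shallowest TGF-β library, which covers counting error only, as PCR copies are not marked by molecular identifiers. Replicates differed by more than counting noise, with a chi-square over its degrees of freedom of 7.51 to 8.47 after LPS and 8.92 to 19.4 after TGF-β. Levels are given as normalised CPM, in which counts are scaled by library size and TMM factor. In bulk RNA fewer cells of a type and less RNA per cell cannot be told apart.

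Of 259 precursors tested, 47 were higher after LPS than after TGF-β (18.1%) and 36 were lower (13.9%), at an adjusted p under 0.05 in edgeR's quasi-likelihood test. The higher group held the known products of Toll-like receptor signalling (mir-146a, mir-146b, mir-155), mir-21a, the mir-221 and mir-222 pair, the miR-7 family, 3 of the 4 miR-29 precursors and mir-320. The lower group held mir-700, mir-744, mir-328, mir-504, both mir-181a copies and the mir-23 and mir-24 precursors. On the LPS side 28 called precursors exceeded a log2 difference of 1, against 10 on the TGF-β side. In 106 precursors (40.9%) the 3 LPS libraries did not overlap the 3 TGF-β libraries. The 12 precursors named by smallest p in each direction were chosen to have no overlap, so for them it adds no support. The median log2 difference of all tested precursors was 0.02, and scaling by library totals alone moved it to -0.25. That scaling changed the split from 47 higher and 36 lower to 32 higher and 71 lower, and DESeq2's size factors gave 46 and 42. Under all 3 scalings 32 of the 47 higher calls and 36 of the 36 lower calls held. Both other scalings lowered the median, which works against higher calls and favours lower ones, so these counts do not rank the sides.

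**Figure D1:**
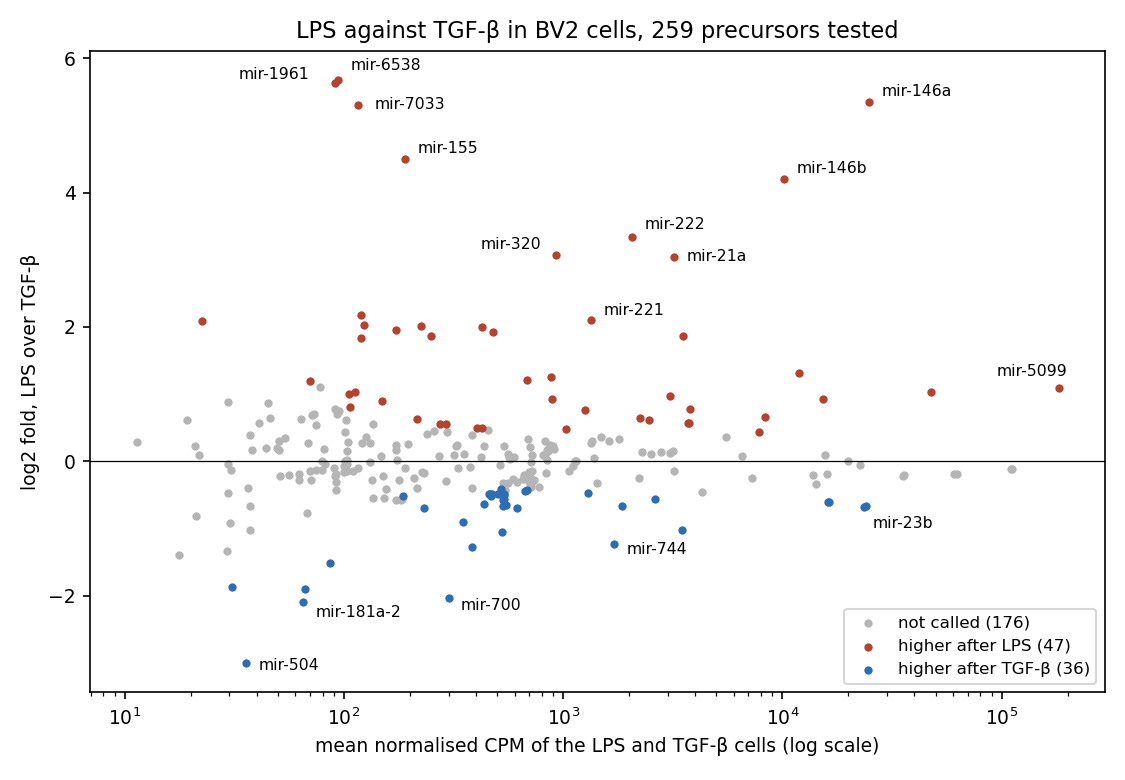
Log2 fold of LPS over TGF-β in BV2 cells (y axis) against the mean normalised CPM of the 6 libraries (x axis, log scale), with 1 point per tested precursor. Red points were called higher after LPS (47), blue points higher after TGF-β (36) and grey points were not called (176); mir-146a combines a high level with a log2 difference of 5.35.

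Precursors known as targets of Toll-like receptor 4 signalling were far higher after LPS. mir-146a (chr11:43374397-43374461), whose product represses Irak1 and Traf6, stood at 52830, 44820 and 47320 normalised CPM in the LPS libraries and at 1110, 1452 and 992 in the TGF-β libraries. The lowest LPS library lay far above the highest TGF-β library. The difference was 40.8-fold, a log2 of 5.35 ± 0.18 (SE; edgeR adjusted p = 5.24e-17). mir-146b (chr19:46342762-46342870), in an intron of Mfsd13a on another chromosome, stood at 20930, 17680 and 19090 after LPS and 960.4, 1289 and 885 after TGF-β. It shares its seed with mir-146a, and its difference was 18.4-fold (4.20 ± 0.17, edgeR adjusted p = 1.32e-15). Together the 2 precursors took 5.80 ± 0.439% of the counts after LPS (SD, n = 3) and 0.228 ± 0.0325% after TGF-β.

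mir-155 (chr16:84714140-84714204), transcribed from an exon of Mir155hg and known to repress Socs1 and Inpp5d, was less abundant. Its level was 404, 380.3 and 309.9 normalised CPM after LPS and 10.7, 25.6 and 11.2 after TGF-β. These groups did not overlap and differed 22.5-fold (4.49 ± 0.33, edgeR adjusted p = 1.03e-10). mir-132, induced by CREB and by Toll-like receptors, stood at 40.9, 25.4 and 43.5 after LPS and 3.56, 12.8 and 8.43 after TGF-β, near the low end of the tested range. Its difference was 2.09 ± 0.67 on the log2 scale (edgeR adjusted p = 0.0189), and the call ended without LPS library 1, LPS library 3 or TGF-β library 1, with adjusted p of 0.0512, 0.0901 and 0.0629. Only 13 alternatives gave a value for mir-132, against 22 for the named precursors with the most. Of 11 listed precursors of this pathway 5 were tested. Of these, 5 of 5 were higher after LPS, mir-21a included, beside 18.1% of all tested precursors, with a median log2 difference of 4.20. Each TGF-β library held under 10 counts, the filter's minimum, of mir-155 and of mir-132. Neither thus passed the filter through the TGF-β libraries, and the share of this list is given as a value and not as support. Of the 5, mir-146a and mir-146b were the most abundant in the LPS libraries. Against control the TGF-β cells stood at 0.28 ± 0.16 for mir-146a, 0.29 ± 0.15 for mir-146b and -0.43 ± 0.48 for mir-155, and edgeR called none of these 3. LPS stood at 5.63 ± 0.18, 4.49 ± 0.17 and 4.06 ± 0.30.

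**Figure D2:**
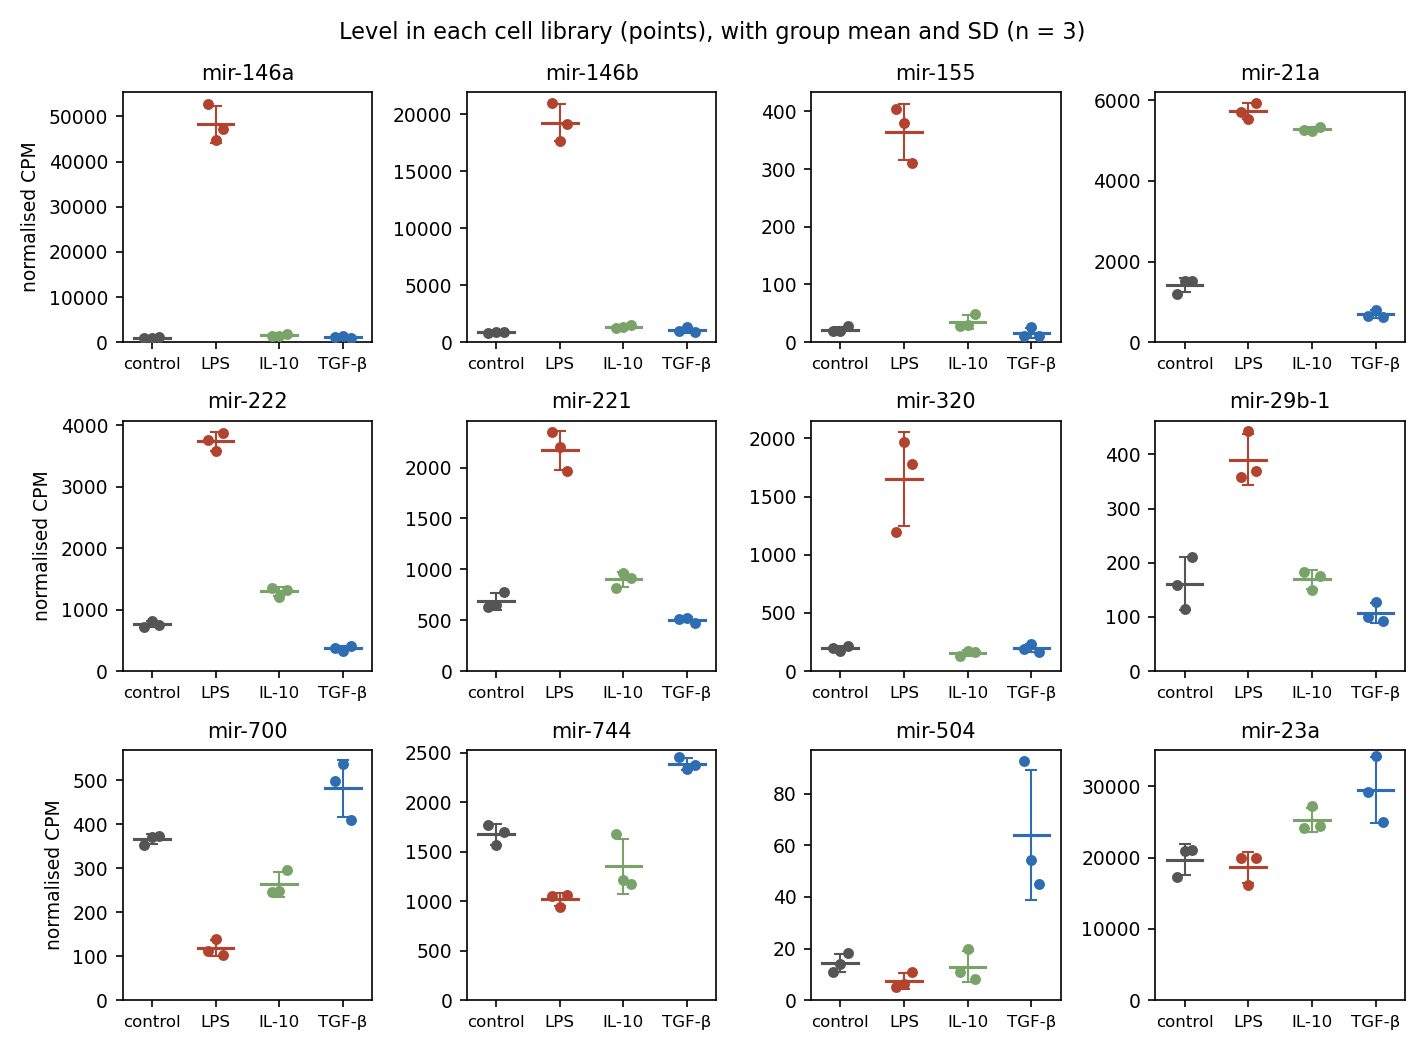
Normalised CPM (linear y axes starting at 0) of 12 precursors in each of the 12 cell libraries, as points, with the group mean and SD (n = 3). The LPS points of mir-146a, mir-146b and mir-155 lie above those of the other 3 groups, mir-21a is high after LPS and IL-10 and lowest after TGF-β, and mir-504 is highest after TGF-β.

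mir-21a and mir-222 passed the test on opposite sides of the controls under the 2 treatments. mir-21a (chr11:86584067-86584158), which overlaps an exon of Vmp1 and represses Pdcd4, stood at 5718, 5546 and 5938 normalised CPM after LPS and 651, 809 and 621 after TGF-β. Control libraries held 1205, 1506 and 1528, between the treated groups without overlap. LPS and TGF-β differed 8.27-fold (3.05 ± 0.15, edgeR adjusted p = 5.51e-14). Set against the shared controls, mir-21a was higher after LPS by 2.02 ± 0.14 (edgeR adjusted p = 5.53e-11) and changed by -1.03 ± 0.14 after TGF-β (4.14e-05). Of all tested precursors 83 (32.0%) differed from control after LPS and 17 (6.56%) after TGF-β.

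mir-222 (chrX:19146893-19146971), a repressor of the cell cycle inhibitor p27, stood at 3761, 3575 and 3877 after LPS and 369.9, 329 and 410.3 after TGF-β, with controls at 726, 816 and 755. The treated groups lay apart on either side of the controls, and their difference was 10.1-fold (3.33 ± 0.14, edgeR adjusted p = 4.01e-15). mir-221 (chrX:19146294-19146388), its neighbour on the X chromosome with the same seed, stood at 2346, 2199 and 1963 after LPS and 512, 521 and 475 after TGF-β. The difference was 4.32-fold (2.11 ± 0.14, edgeR adjusted p = 1.99e-11), and both members of the pair were thus higher after LPS. Against control mir-222 stood at 2.29 ± 0.13 after LPS and -1.05 ± 0.14 after TGF-β, both called by edgeR. The corresponding values of mir-221 were 1.66 ± 0.14, called, and -0.45 ± 0.14, not called (edgeR adjusted p = 0.0600).

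**Figure D3:**
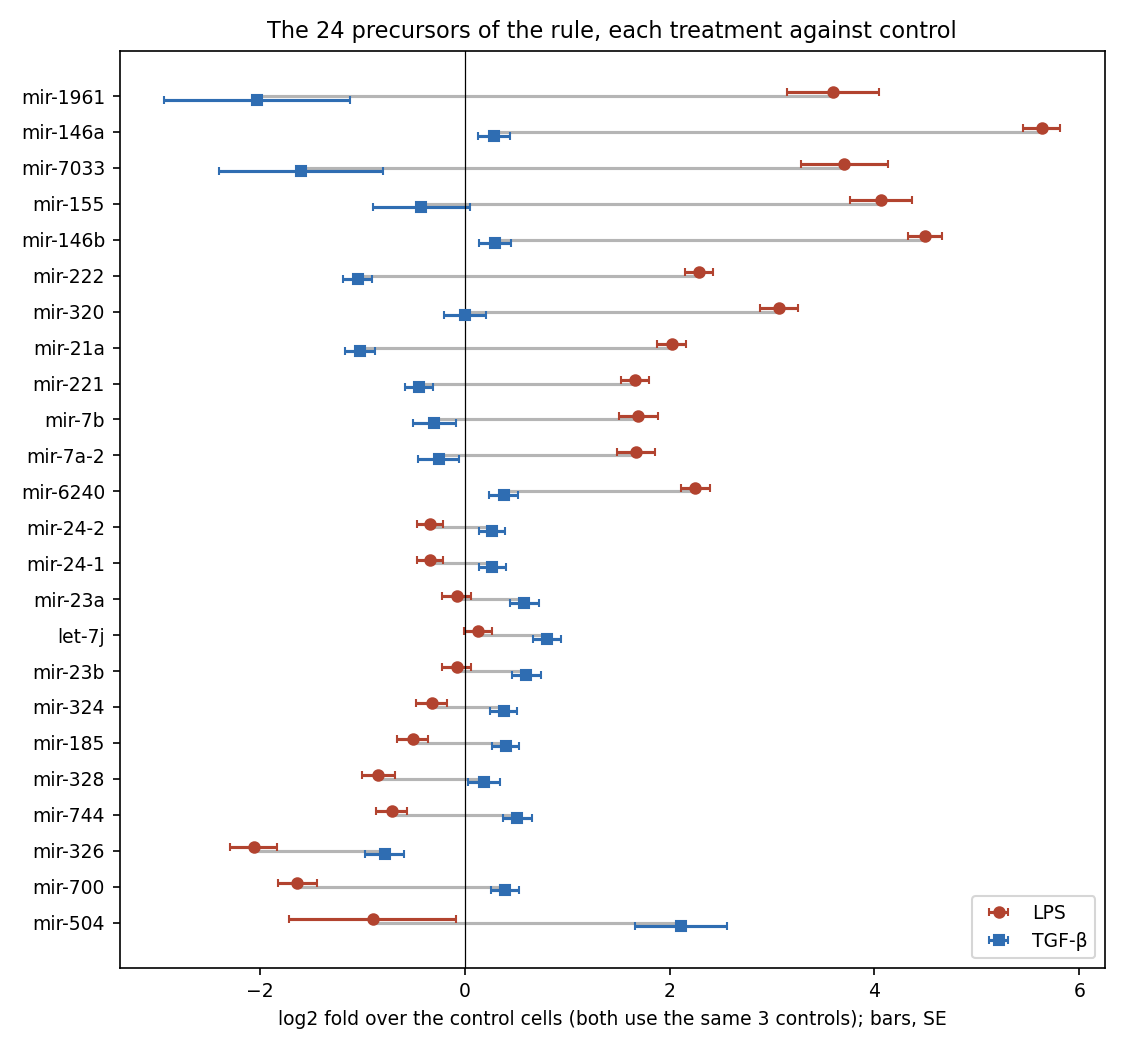
Log2 fold over the control cells for LPS (red circles) and TGF-β (blue squares), with SE bars, for the 12 precursors with the smallest p in each direction of LPS against TGF-β; both series use the same 3 control libraries. Red lies far right of blue at the top (mir-146a 5.63 and 0.28), mir-21a and mir-222 straddle 0, and mir-504 at the bottom stands at 2.11 after TGF-β.

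The miR-7 family, known for repressing alpha-synuclein, was higher after LPS in 3 of 3 tested precursors, beside 18.1% of all tested precursors. mir-7a-2 stood at 889, 615 and 772 normalised CPM after LPS and 146, 224 and 225 after TGF-β (1.93 ± 0.19, edgeR adjusted p = 2.21e-08). mir-7b stood at 812, 545 and 696 and 135, 182 and 197 (1.99 ± 0.20, 3.18e-08), and mir-7a-1, in an intron of Hnrnpk, at 1431, 1071 and 1207 and 480.2, 588 and 495 (1.25 ± 0.15, 2.92e-07). In none of the 3 did the groups overlap, beside 40.9% of all tested precursors without overlap. For mir-7a-2 and mir-7b the rule that named them required this, so it adds no support. mir-7a-1 and mir-7a-2 give the same mature 5p strand, and that of mir-7b differs from it at 1 of 23 positions, so reads of the family may be shared between precursors.

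The miR-29 family represses collagen genes, and TGF-β signalling is known to lower the family in other cells. It was higher after LPS in 3 of 4 precursors, beside 18.1% of all tested precursors, with a median log2 difference of 1.17. mir-29b-1 stood at 358, 444 and 369.7 after LPS and 99.6, 128 and 92.8 after TGF-β (1.86 ± 0.22, edgeR adjusted p = 3.83e-07), and mir-29b-2 at 307, 431 and 343 and 78.3, 112 and 75.9 (2.01 ± 0.26, 1.54e-06). These are copies with 1 mature 3p strand, and neither overlapped between the treatments, beside 40.9% of all tested precursors without overlap. The neighbours in their clusters stood lower: mir-29a, beside mir-29b-1, differed by 0.47 ± 0.15 (edgeR adjusted p = 0.0186) and mir-29c, beside mir-29b-2, by 0.40 ± 0.19 (0.108), and the contrast between cluster neighbours was not tested. The mir-29a call ended with library totals (0.22, edgeR adjusted p = 0.302), with no filter (0.0903), without LPS library 1 (0.113) and without TGF-β library 3 (0.0893). Against control TGF-β cells stood at -0.58 ± 0.23 for mir-29b-1 and 0.26 ± 0.15 for mir-29a, neither called by edgeR, while LPS cells stood at 1.28 ± 0.21 and 0.74 ± 0.15, both called.

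mir-320, whose hairpin is made without Drosha, stood at 1196, 1971 and 1783 normalised CPM after LPS and 188, 233 and 166 after TGF-β. The groups lay far apart, and LPS library 1 was the lowest of its group (8.40-fold, log2 3.07 ± 0.19, edgeR adjusted p = 3.37e-12). TGF-β cells differed from control by -0.00 ± 0.21, and LPS cells by 3.07 ± 0.18. Of 6 tested precursors that bypass Drosha or are mirtrons, mir-320 was the 1 that was higher and mir-484 the 1 that was lower (-0.69 ± 0.23, edgeR adjusted p = 0.0258). These shares are close to the 18.1% and 13.9% of all tested precursors, and the list's median was 0.06. The mir-484 call ended without LPS library 2, LPS library 3 or TGF-β library 2 (adjusted p of 0.0620, 0.0941 and 0.0808) and without mir-5099 and the structural RNA fragments (0.0567).

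Among precursors of the myeloid lineage 5 of 8 tested were higher after LPS and 0 lower, beside 18.1% and 13.9% of all tested precursors, with a median of 1.44. Of these, mir-146a, mir-155 and mir-21a are described above and also stand in the Toll-like receptor list. The share and the median are thus not a separate result about the lineage. mir-342 (chr12:108658620-108658718), in an intron of Evl, stood at 174, 190.1 and 196 after LPS and 56.9, 48.0 and 50.6 after TGF-β, without overlap (1.84 ± 0.24, edgeR adjusted p = 1.71e-06). mir-223, a regulator of granulocyte maturation, stood at 169, 146 and 136 after LPS and 99.6, 83.1 and 42.2 after TGF-β, while the controls stood at 203, 232 and 284. Both treated groups were thus below the controls, at -0.66 ± 0.24 after LPS and -1.70 ± 0.25 after TGF-β, and the treatments differed by 1.03 ± 0.29 (edgeR adjusted p = 0.00814). That call ended without TGF-β library 3 (0.71, adjusted p = 0.0566). mir-142a, a marker of blood cells, stood at 3221 ± 243 and 2952 ± 236 (SD, n = 3) and was not called (0.13 ± 0.16, 95% interval -0.20 to 0.45). mir-511, in an intron of Mrc1, the mannose receptor gene, stood at 5.11, 25.4 and 32.6 and 39.1, 48.0 and 30.9 with overlapping groups (edgeR adjusted p = 0.186).

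Several scarce precursors had large ratios. Each TGF-β library held under 10 counts of them, the filter's minimum, so they passed the filter through LPS libraries and not through those of TGF-β. Their ratios and p-values are thus given as values and not as support for other results. mir-7033, in an intron of Pom121, stood at 128, 234 and 315 normalised CPM after LPS and 10.7, 3.20 and 2.81 after TGF-β (5.31 ± 0.54, edgeR adjusted p = 3.79e-08), and at 6.05 without TGF-β library 1. mir-1961 gave 24, 34 and 36 counts after LPS, 0, 3 and 0 after TGF-β, and 4, 8 and 4 in controls. From summed counts its ratio was 55.4, with a 95% counting interval of 18.4 to 273 that leaves out the spread between libraries. edgeR's fitted log2 was 5.63 ± 0.61 (adjusted p = 8.73e-08), and 8.73 without TGF-β library 2, the one with 3 counts. The mature strand of mir-1961 carries the let-7 seed GAGGUAG and begins with the same 13 bases as let-7i-5p. It is set here beside that strand, with the seed in capitals.
miR-1961: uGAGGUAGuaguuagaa
let-7i-5p: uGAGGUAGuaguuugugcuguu
Of 13 tested precursors for which a mature strand with this seed was listed, mir-1961 was the 1 that was higher and let-7i the 1 that was lower. Both shares lie below the 18.1% and 13.9% of all tested precursors. The 13 leave out let-7a-2, listed with its 3p strand only. mir-6538, in an intron of Rnf144a and chosen after its values were seen, gave 21, 37 and 39 counts after LPS and 0, 3 and 0 after TGF-β, a ratio of 57.1 (counting interval 19.0 to 282). In both precursors the 3 counts of the TGF-β group came from 1 library.

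On the TGF-β side mir-700 had the smallest p. It stood at 112, 139 and 103 normalised CPM after LPS and 498, 537 and 410.3 after TGF-β, 4.08-fold higher after TGF-β without overlap (-2.03 ± 0.19, edgeR adjusted p = 6.63e-09). Controls held 353, 372 and 374, so LPS was below control (-1.64 ± 0.19, called by edgeR) and TGF-β not detectably above it (0.39 ± 0.14, adjusted p = 0.0908). mir-744 (chr11:65734733-65734832), in an intron of Map2k4 and reported to repress Tgfb1 itself, stood at 1048, 944 and 1060 after LPS and 2451, 2334 and 2375 after TGF-β. These groups lay apart (-1.23 ± 0.15, edgeR adjusted p = 4.40e-07), on either side of the controls at 1769, 1562 and 1697. Against control mir-744 changed by -0.72 ± 0.15 after LPS and by 0.51 ± 0.14 after TGF-β, both called by edgeR.

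mir-504 (chrX:59097658-59097736), in an intron of Fgf13 and a known repressor of p53, stood at 5.11, 6.34 and 10.9 normalised CPM after LPS and 92.5, 54.4 and 45.0 after TGF-β. The TGF-β libraries were all above the LPS libraries, with library 1 the highest, and the difference was 8.04-fold (-3.01 ± 0.63, edgeR adjusted p = 6.70e-04). Here the TGF-β group moved away from control, at 2.11 ± 0.45 (edgeR adjusted p = 0.00309), while LPS stood at -0.90 ± 0.82 (0.420). mir-181a-2 and mir-181a-1, copies with 1 mature 5p strand that tunes T-cell receptor signalling, stood at 10.2, 31.7 and 32.6 and 20.4, 31.7 and 32.6 after LPS. After TGF-β they stood at 121, 73.5 and 121 and 121, 70.3 and 124. Their differences were -2.10 ± 0.47 and -1.90 ± 0.45 (edgeR adjusted p = 0.00121 and 0.00208), and with near-equal counts they are not 2 independent results. Against control the LPS values were -1.52 ± 0.50 and -1.33 ± 0.47 and the TGF-β values 0.58 ± 0.33 and 0.56 ± 0.32, the latter 2 not called. Each LPS library held under 10 counts, the filter's minimum, of mir-504 and of both mir-181a copies. They thus passed the filter through other libraries and not through those of LPS. Their ratios and p-values are given as values and not as support for other results.

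The mir-23a, mir-27a and mir-24-2 cluster and its copy mir-23b, mir-27b and mir-24-1, both known to respond to TGF-β in other cells, were abundant. The 6 precursors took 5.49 ± 0.476% of counts after LPS and 10.2 ± 0.694% after TGF-β (SD, n = 3). An exact permutation test of the difference, two-sided, gave p = 0.1, the smallest that 3 against 3 libraries allow. mir-23a stood at 19880, 16090 and 19880 normalised CPM after LPS and 29250, 34170 and 25010 after TGF-β, without overlap (-0.66 ± 0.14, edgeR adjusted p = 8.03e-04). mir-24-2 stood at 13090, 12730 and 12970 and 20180, 21860 and 17020 (-0.61 ± 0.13, 8.03e-04). mir-23b (-0.68) and mir-24-1 (-0.61) were nearly the same as their copies, and copies may share reads. mir-27a (-0.20 ± 0.15, edgeR adjusted p = 0.333) and mir-27b (-0.38 ± 0.15, 0.0562) were not called. Thus 4 of 6 were lower after LPS, beside 13.9% of all tested precursors, with a list median of -0.61. mir-27b was called under 11 of its alternatives, among them DESeq2's size factors (0.0475). Against control mir-23a stood at 0.58 ± 0.14 after TGF-β (edgeR adjusted p = 0.00911) and -0.08 ± 0.14 after LPS. mir-24-2, by contrast, stood at -0.34 ± 0.13 after LPS (0.0489) and 0.26 ± 0.13 after TGF-β (0.209).

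Precursors reported as induced or processed through TGF-β and SMAD formed a list of 20, of which 11 were tested. After LPS 4 were lower (mir-181a-1, mir-181a-2, mir-23a and mir-24-2) and 1 was higher, mir-21a, beside 13.9% and 18.1% of all tested precursors. The 2 mir-181a copies are not independent, and they did not pass the filter through the LPS libraries. The median log2 difference was -0.57 beside 0.02 for all precursors. That median was the value of mir-199b, which was not called and has the same mature 3p strand as the mir-199a copies. With library totals 8 of the 11 were lower. mir-21a, a standard example of SMAD-assisted processing, was thus the called member that went the other way. The list of precursors that TGF-β is reported to repress had 3 of 6 higher after LPS, all of the miR-29 family, beside 18.1% of all tested precursors. Its median was 0.43.

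**Figure D4:**
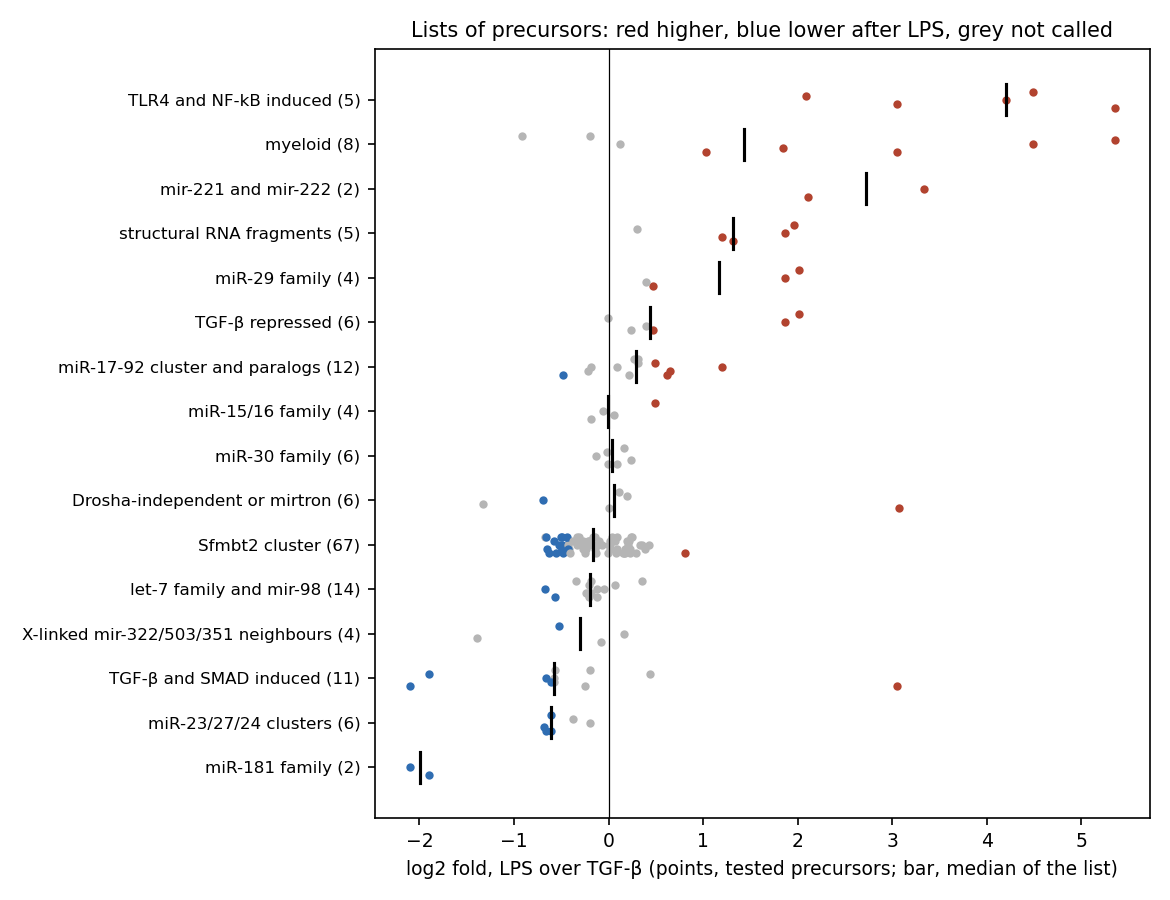
Log2 fold of LPS over TGF-β (x axis) for the tested members of 16 lists (number tested in brackets), with a bar at each list's median; red points were called higher after LPS, blue points lower and grey points not called, and some precursors stand in more than 1 list. The Toll-like receptor list has the highest median (4.20) and the miR-181 list the lowest.

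mir-326, in an intron of Arrb1 and known to promote Th17 cells, stood at 219.7, 266 and 185 normalised CPM after LPS and 551, 566 and 506 after TGF-β (-1.28 ± 0.24, edgeR adjusted p = 1.62e-04). Both lay below the controls, at -2.06 ± 0.23 after LPS and -0.78 ± 0.19 after TGF-β. mir-328 stood at 2126, 2396 and 2316 and 4948, 5257 and 3758 (-1.03 ± 0.16, edgeR adjusted p = 1.45e-05). mir-185, in an intron of Tango2, stood at 276, 209 and 239 and 487, 448 and 438 (-0.91 ± 0.15, 4.99e-05). mir-324 differed by -0.70 ± 0.15 (6.45e-04). In each of these 4 precursors the groups did not overlap, which the rule that named them required, so it adds no support.

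mir-210, the classical hypoxia microRNA, stood at 332, 539 and 163 after LPS and 1081, 451 and 599 after TGF-β, with overlapping groups, and at 2717, 2500 and 2578 in controls. Its difference of -1.06 ± 0.34 (edgeR adjusted p = 0.0195) ended without LPS library 3 (-0.71, adjusted p = 0.130) and without TGF-β library 1 (-0.63, 0.121). It was also not called with a robust prior (0.147), with the Wald test of DESeq2 (0.0837) or without mir-5099 and the structural RNA fragments (0.0503). Among the X-linked neighbours of mir-322, which is of the miR-15/16 seed family, mir-351 was lower (-0.52 ± 0.20, 0.0449), a call that ended in 13 alternatives (adjusted p of 0.0526 to 0.342). Among these were the fits without control library 3, LPS library 1 or 3, IL-10 library 3, or any 1 TGF-β library. mir-322 itself (-0.08 ± 0.16) and mir-503 (0.16 ± 0.43) were not called, and both lay below control under either treatment: mir-322 at -0.77 ± 0.15 after LPS and -0.69 ± 0.14 after TGF-β, mir-503 at -1.24 ± 0.37 and -1.40 ± 0.33.

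Within the miR-17-92 cluster and its paralogs, which promote proliferation, 4 of 12 tested precursors were higher after LPS and 1 was lower, beside 18.1% and 13.9% of all tested precursors, with a median of 0.29. With library totals 1 was higher and 2 were lower, with a median of 0.03. mir-18a stood at 81.8, 108 and 103 normalised CPM after LPS and 28.5, 60.8 and 36.5 after TGF-β (1.20 ± 0.34, edgeR adjusted p = 0.00848). The copies mir-92a-1 (0.62 ± 0.13, 8.03e-04) and mir-92a-2 (0.65 ± 0.13, 4.85e-04) were higher as well, at 0.35 and 0.38 with library totals and then not called (0.0819 and 0.0551). In the Mcm7 cluster the 2 members with the seed AAAGUGC went opposite ways. Their mature strands, printed to show the shared seed, differed at 5 of 21 positions.
miR-93-5p: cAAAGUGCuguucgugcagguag
miR-106b-5p: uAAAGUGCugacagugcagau
mir-93 stood at 1175, 1147 and 919 after LPS and 1402, 1688 and 1425 after TGF-β (-0.48 ± 0.14, edgeR adjusted p = 0.0111), with no overlap. mir-106b, picked with its value known, stood at 449.7, 577 and 468 and 331, 412 and 318 (0.49 ± 0.16, 0.0228). The mir-93 call ended without LPS library 3 (-0.37, adjusted p = 0.0901) and without TGF-β library 2 (-0.39, adjusted p just over 0.05), and the mir-106b call ended with library totals (0.23, adjusted p = 0.317).

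The let-7 family and mir-98, which restrain proliferation, took 39.1 ± 1.14% of the counts after LPS and 52.0 ± 2.39% after TGF-β (SD, n = 3), with 49.7 ± 1.27% in controls. The LPS libraries, at 39.5, 37.8 and 39.9%, lay below the TGF-β libraries, at 51.7, 54.5 and 49.7%. The difference was -12.9 percentage points (exact permutation test, two-sided, p = 0.1, the smallest possible), and -8.74 with mir-5099 and the structural RNA fragments left out of the totals. After TMM scaling 2 of 14 members were lower after LPS and 0 higher, with a median of -0.20, a lower share close to the 13.9% of all tested precursors. These were let-7i at 2116, 2079 and 2191 and 3219, 3406 and 2808 normalised CPM (-0.56 ± 0.13, edgeR adjusted p = 0.00165) and let-7j (-0.67 ± 0.14, 5.43e-04). Both stood above control after TGF-β, let-7i at 0.74 ± 0.13 and let-7j at 0.80 ± 0.13. let-7a-1, the most abundant member, stood at 111500, 104300 and 105800 and 119300, 129600 and 100200 with overlapping groups (-0.12 ± 0.13, 0.538). With library totals 12 of 14 were lower, let-7a-1 included (-0.37), so the count for this family depends on the scaling.

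Beside mir-146a and mir-146b, which together held 5.58 percentage points more after LPS, mir-5099 gained share. This most abundant precursor stood at 21.2 ± 1.66% of counts after LPS against 12.1 ± 2.11% after TGF-β. In normalised CPM it differed by 1.09 ± 0.16 (edgeR adjusted p = 8.36e-06). mir-3535, whose RefSeq hairpin overlaps an exon of Ncl, stood at 5.48 ± 0.632% and 3.24 ± 0.276% (1.03 ± 0.14, 3.44e-06). Precursors listed as fragments of rRNA, tRNA or snoRNA were higher in 4 of 5 cases, beside 18.1% of all tested precursors, with a median of 1.31. mir-6240 stood at 4487, 6160 and 5927 and 1490, 1589 and 1447 (1.87 ± 0.14, edgeR adjusted p = 2.00e-10), mir-1983 differed by 1.96 ± 0.24, mir-6236 by 1.31 ± 0.15 and mir-664 by 1.20 ± 0.17. These 5 took 2.19 ± 0.292% of the counts after LPS and 1.05 ± 0.117% after TGF-β. The part of this share in the other calls was not tested; without mir-5099 and these fragments 41 precursors were higher and 30 lower.

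The list of the Sfmbt2 cluster, a rodent array of repeated hairpins within an intron, had 15 of 67 tested members lower after LPS and 1 higher, beside 13.9% and 18.1% of all tested precursors, with a median of -0.16. This list was drawn by family name and takes in mir-467h, which lies on chromosome 9 outside that array and was not called. With library totals 23 were lower and 0 higher. The lower ones were 8 copies of mir-467a, mir-467d, 4 mir-297 precursors and 2 copies of mir-669a, between -0.67 and -0.42. mir-467a-4 stood at 449.7, 393 and 386 and 569, 755 and 629.5 normalised CPM (-0.67 ± 0.15, edgeR adjusted p = 0.00113). Such copies may share reads and are not independent, and with numbered copies summed 41 of 206 features were higher and 30 lower in the whole table. The higher member, mir-466f-3, lost its call with library totals and with DESeq2's size factors. The miR-30 family had 0 of 6 members called by edgeR, with a median of 0.04 and values from -0.14 to 0.24. None of 3 was called for mir-182, mir-183 and mir-96, and none of 2 for the miR-99/100 and miR-125 clusters. In the miR-15/16 family mir-15b was the 1 of 4 called higher (0.50 ± 0.17, 0.0259), beside 18.1% of all tested precursors. It was not called with library totals (0.358), with no filter (0.150), without LPS library 3 (0.213) or without TGF-β library 3 (0.131). The list of precursors induced by p53 had 1 of 3 tested lower, beside 13.9% of all tested precursors, and is too short to compare with that share. The lower member was mir-504, scarce after LPS and described above as a repressor of p53. mir-34a, the standard p53 target, differed by -0.29 ± 0.18 (edgeR adjusted p = 0.244). Of 38 precursors of the imprinted Dlk1-Dio3 cluster 35 were at 0 and 0 could be tested.

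IL-10, an anti-inflammatory cytokine, was set against TGF-β in the same fit. The comparison shares the TGF-β libraries, so its values are set beside those of LPS. IL-10 exceeded TGF-β in 21 precursors (8.11%) and fell below it in 17 (6.56%). mir-21a stood at 5267, 5240 and 5340 normalised CPM after IL-10, 2.93 ± 0.15 above TGF-β (edgeR adjusted p = 4.32e-13), close to the LPS value. mir-342 (1.66 ± 0.23, 1.34e-05), mir-222 (1.81 ± 0.14, 1.03e-09), mir-223 (1.78 ± 0.25, 1.34e-05) and mir-221 (0.84 ± 0.14, 1.47e-04) were also higher after IL-10 than after TGF-β. mir-504 (-2.27 ± 0.47, 0.00113), mir-744 (-0.82 ± 0.14, 2.20e-04), mir-700 (-0.86 ± 0.15, 1.78e-04) and let-7i (-0.42 ± 0.13, 0.0277) were lower, as after LPS. mir-146a (0.37 ± 0.15, 0.126), mir-155 (1.16 ± 0.44, 0.0898) and mir-320 (-0.31 ± 0.21, 0.416) were not called between the cytokines. mir-322 (1.07 ± 0.14) and mir-351 (1.21 ± 0.15) were higher after IL-10 than after TGF-β, whereas mir-322 was not called between LPS and TGF-β. mir-92a-2 went the other way, at -0.75 ± 0.13 (edgeR adjusted p = 2.22e-04).

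The microglial label was checked on microRNA markers: mir-142a and mir-223, which mark blood and myeloid cells, were present in all 6 libraries, and mir-142b was at 0. Of 35 markers of other cell types 14 were at 0 in the 6 libraries, among them the red cell and endocrine markers, 3 of 3 and 1 of 1. The most abundant were mir-126a of endothelium, at up to 166 CPM of library totals, and mir-128-1 of neurons, at up to 111. edgeR called neither (adjusted p = 0.554 and 0.0626). The neuronal list summed to 96.9 to 158 CPM after LPS and 63.6 to 86.6 after TGF-β, with mir-9-2 and mir-9-3 at 0, and the endothelial list to 97.1 to 116 and 140 to 166. Neither list overlapped between the treatments, and the part of these lists in the results was not tested.

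In the EVs the same contrast could be read from 15071 to 28727 counts per library. mir-320 gave 32, 97 and 94 counts in the LPS EVs and 2, 1 and 0 in the TGF-β EVs (4.43 ± 0.72, edgeR adjusted p = 7.83e-05). mir-21a gave 30, 13 and 54 and 1, 4 and 3 (1.75 ± 0.58, 0.0337). Both lay on the same side as in the cells. mir-320 was called under the 3 scalings (3.67 with DESeq2's size factors, 5.46 with library totals), while mir-21a was not called with DESeq2's size factors (1.07, adjusted p = 0.220). mir-146a gave 14, 103 and 85 counts after LPS and 14, 1 and 0 after TGF-β. In normalised CPM these were 828, 6278 and 2882 and 2871, 145 and 0, so the groups overlapped (1.90 ± 0.92, edgeR adjusted p = 0.125), and mir-146a was called with library totals (3.01, 0.00676). mir-222 gave 11, 10 and 16 and 2, 9 and 0 (-0.03 ± 0.64, and -0.75 with DESeq2's size factors and 1.03 with library totals, none called by edgeR). The EV value minus the cell value was -3.31 ± 0.79 (edgeR adjusted p = 0.00592). With DESeq2's size factors this difference was -4.04 and with library totals -2.03, the latter not called (adjusted p = 0.0775).

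Of 280 precursors in this test of EVs against cells, 18 (6.43%) had a higher and 16 (5.71%) a lower LPS over TGF-β value in EVs than in cells. The split depended on the scaling, with 4 and 27 under DESeq2's size factors and 82 and 9 under library totals, which moved the median difference from 0.46 to -0.24 and 1.70. Under all 3 scalings 4 higher calls (mir-5126, mir-466d, mir-93 and mir-2137) and 9 lower calls held. mir-6240 and mir-6236 were among the latter: higher after LPS in cells, they stood at -1.93 ± 0.34 and -1.36 ± 0.32 in EVs. With library totals these EV values were -0.85 and -0.36, and with DESeq2's size factors -2.67 and -2.14. mir-6236 alone gave 15673, 16150 and 12909 counts in the LPS EVs and 13213, 11143 and 10660 in the TGF-β EVs, or 65.5, 56.2 and 49.9% and 79.0, 70.4 and 70.7% of the libraries.

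**Figure D5:**
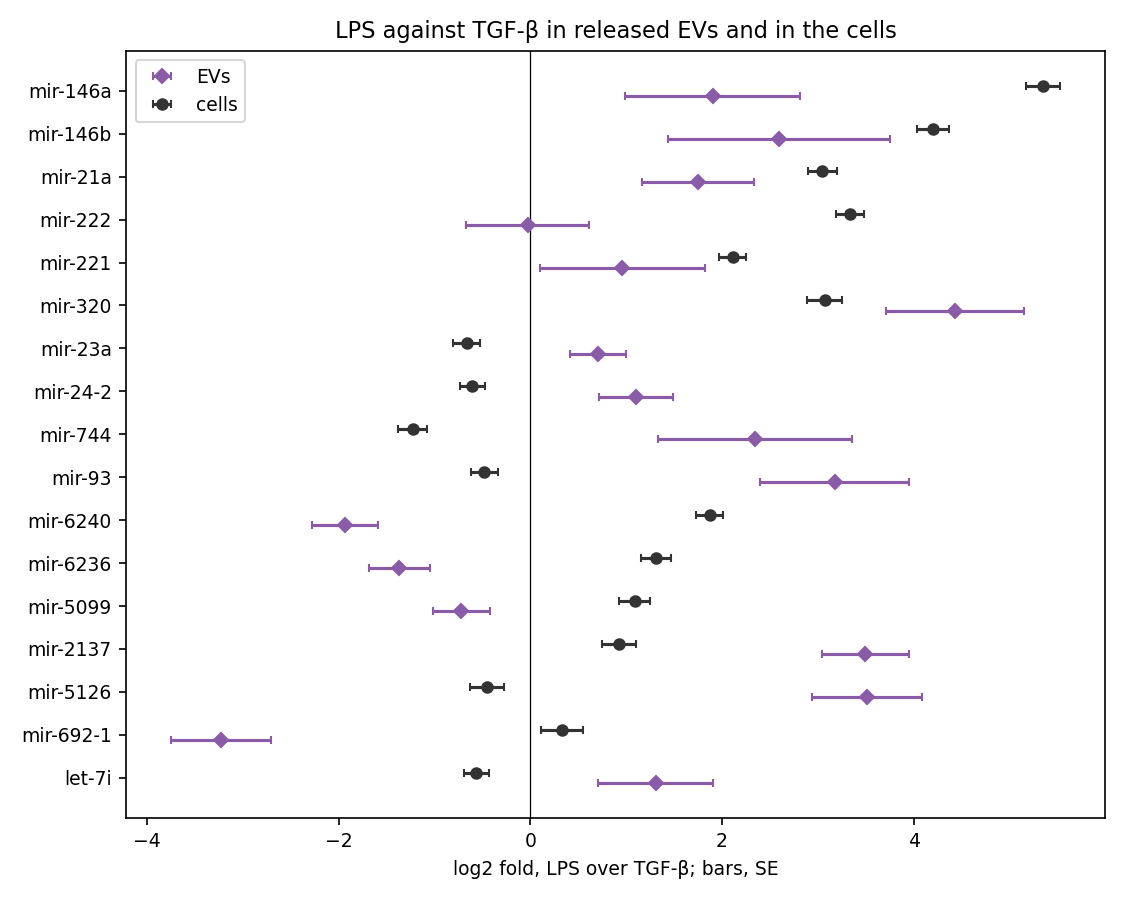
Log2 fold of LPS over TGF-β (x axis, bars SE) in EVs (purple diamonds, fit of 24 libraries) and in cells (black circles, fit of 12 libraries) for 17 precursors. mir-320 and mir-21a lie right of 0 in both, mir-222 lies at -0.03 in EVs under the TMM scaling drawn here (-0.75 and 1.03 under DESeq2's size factors and library totals), and mir-6240 and mir-6236 lie on opposite sides.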

How the data were processed

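Small RNA was measured in 24 libraries of BV2 cells and their EVs. Per the labels' protocols, RNA was extracted with miRNeasy kits and sequenced after SMARTer smRNA-seq preparation with 18 PCR cycles, in reads of 150 bases. The authors deposited whole counts per microRNA precursor, without normalization. The submitters' processing notes name DESeq2, with no version, while aligner, annotation and build were not given in the sources used here. Fits used 6 of the 8 deposited tables, since 2 were identical to one of these. Tables were joined by precursor name, and the control columns, repeated across tables, were used once.

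LPS was compared with TGF-β in a fit of the 12 cell libraries (8 residual degrees of freedom) with edgeR 4.0.16 in R 4.3.3, TMM factors, the filterByExpr filter (minimum count 10) and the two-sided quasi-likelihood F test. That filter keeps a precursor with enough counts in as many libraries as 1 group holds, so 1 treatment alone can bring a precursor in. Adjustment was by Benjamini-Hochberg across every precursor tested. EVs were compared with cells in a fit of 24 libraries (16 residual degrees of freedom). Fold changes are edgeR estimates, with SE from the F statistic. Alternatives were DESeq2's size factors and Wald test (DESeq2 1.42.0), library totals, other filters, a robust prior, fewer groups, summed copies, a replicate block and each library left out. The procedure was tested on simulated data. Named precursors were the 12 with the smallest p and no overlap in each direction, fixed precursors, up to 4 members of each list, the 5 most abundant of each group and, for the other comparisons, the 5 of smallest p either way. The members and lists were chosen with earlier results of these data known. Mature strands and hairpin positions are from RefSeq (GRCm38.p6) and host genes from GENCODE, matched by name.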

Additional observations from a re-analysis of the deposited data

Results flagged for a closer look

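Of the 34 precursors whose LPS over TGF-β difference was not the same in EVs as in cells, by edgeR's test of the difference between the 2 contrasts, the 5 of smallest p either way are given. The values are log2 of LPS over TGF-β in EVs minus that in cells, followed by the value under DESeq2's size factors and under library totals. Toward LPS, mir-5126 stood at 3.97 ± 0.73 (3.17 and 5.14; edgeR adjusted p = 0.00103), with 179, 353 and 277 counts in the LPS EVs and 1, 6 and 15 in the TGF-β EVs. mir-93, lower after LPS in cells, stood at 3.68 ± 0.81 (2.94 and 4.94; 0.00417), from 15, 23 and 24 against 1, 1 and 0 counts. mir-2137, higher after LPS in cells, stood at 2.57 ± 0.58 (1.83 and 3.89; 0.00417). mir-744, lower after LPS in cells, stood at 3.62 ± 0.95 (2.90 and 4.89; 0.0137), from 3, 5 and 10 against 0, 1 and 0 counts, and it was not called with DESeq2's size factors (adjusted p = 0.0848). mir-466d gave 5, 20 and 25 counts in the LPS EVs and 0 in each TGF-β EV library. Against a floor of 3 counts over the group it was at least 4.76-fold higher in the LPS EVs with TMM scaling, 2.92-fold with DESeq2's size factors and 10.1-fold with library totals, and its fitted difference of 10.96 (11.31 and 9.88) depends on the prior count.

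Toward TGF-β, mir-6240 stood at -3.79 ± 0.49 (-4.52 and -2.47; edgeR adjusted p = 1.02e-05) and mir-6236 at -2.67 ± 0.45 (-3.45 and -1.42; 4.19e-04). The copies mir-692-1 (-3.50 ± 0.69; -4.29 and -2.35), mir-692-2 (-3.30 ± 0.72; -4.15 and -2.24) and mir-692-3 (-3.27 ± 0.71; -4.12 and -2.21) may share reads and count as 1 observation. mir-692-1 gave 82, 72 and 93 counts in the LPS EVs and 68, 315 and 344 in the TGF-β EVs, where library 1 held the fewest. The cause of these differences was not tested.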

How the results depend on the processing

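The number of precursors higher after LPS ranged from 36 to 54 and that of lower ones from 29 to 46 with each of the 12 cell libraries left out in turn. Of 83 calls in cells, scaling by library totals alone ended 15 on the LPS side and gave 71 lower precursors; the cause was not tested. Of 51 named called precursors 41 kept the call under every alternative run for them, and 0 changed direction. IL-10 against TGF-β gave 13 to 24 higher precursors with libraries left out, the lowest without TGF-β library 3. The let-7 share difference ranged from -14.0 to -11.6 percentage points with libraries left out and was -8.74 without mir-5099 and the structural RNA fragments in the denominator.

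The comparison of EVs with cells was unstable. Its higher and lower counts were 4 and 27 with DESeq2's size factors, 82 and 9 with library totals, and 11 and 51 with DESeq2's Wald test, and a mean of at least 50 counts left 4 higher. The number passing the filter changed too, from 280 to 193 to 195 without any 1 cell library and 326 to 339 without any 1 EV library. The part of the filter in the shifts below was not tested. With libraries left out the higher count ranged from 6 to 39. It moved by over 1.5 times without control cell library 1 or 2, LPS cell library 3, IL-10 cell library 1 or 3, TGF-β cell library 2 or 3, any 1 control EV or IL-10 EV library, LPS EV library 1 or 3, or TGF-β EV library 2 or 3. Leaving out mir-5099 and the structural RNA fragments there, chosen after the data were seen, gave 25 and 11. EV libraries of at most 28727 counts limit what can be seen in them. The labels carry no replicate numbers, and the column names' numbers did not pair the libraries: deviations from the group means correlated at -0.24, -0.10 and -0.19 between LPS and TGF-β cells of the same number, and no library correlated best with its own number. A replicate block of these numbers, added after the data were seen, gave 47 higher and 38 lower precursors in cells, 18 and 15 for IL-10 against TGF-β, and 16 and 14 for EVs against cells.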

Other observations

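Called precursors that stand in no list were chosen here after their values were seen. On the LPS side mir-139, in an intron of Pde2a and a known tumour suppressor, stood at 194, 222 and 179 normalised CPM after LPS and 35.6, 57.6 and 50.6 after TGF-β (2.02 ± 0.27, edgeR adjusted p = 1.97e-06). mir-6546, in an intron of the Fc receptor gene Fcgr3, stood at 174, 279 and 141 and 21.3, 54.4 and 50.6 (2.18 ± 0.32, 9.41e-06). mir-22, from Mir22hg, stood at 174, 209 and 201 and 132, 92.7 and 89.9 (0.90 ± 0.23, 0.00443). In these 3 the groups did not overlap, beside 40.9% of all tested precursors without overlap, and the calls held under the 3 scalings. mir-6516 (0.97 ± 0.19), mir-6238 (0.92 ± 0.19) and mir-3069 (0.76 ± 0.17) were higher as well.

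On the TGF-β side mir-339 stood at 25.6, 38.0 and 70.7 after LPS and 128, 159.9 and 98.4 after TGF-β (-1.51 ± 0.36, edgeR adjusted p = 0.00208). mir-1249 stood at 20.4, 0 and 16.3 and 56.9, 57.6 and 33.7 (-1.88 ± 0.56, 0.0127), with LPS library 2 at 0. Neither precursor overlapped between the groups, beside 40.9% of all tested precursors without overlap. Each LPS library held under 10 counts of mir-1249, so it did not pass the filter through the LPS libraries.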
